A study of Mus musculus with 15 samples.

Results

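The 10 genes described here encode neutral and cationic amino acid transporters of the plasma membrane: *Slc38a1*, *Slc38a2*, *Slc38a4*, *Slc7a1*, *Slc7a2*, *Slc7a5*, *Slc7a8*, *Slc3a2*, *Slc1a4* and *Slc1a5*. They were taken by gene symbol from a count table of 20910 genes in cultured mouse retinal pigment epithelium cells (mRPE) and a count table of 25038 genes in mouse RPE/choroid. All 10 were found in both tables, and all 10 had enough counts to be tested in each comparison, *Slc7a8* in KO22 against WT only through its WT libraries. RNA was sequenced from 9 mRPE libraries and 6 RPE/choroid libraries. The mRPE cells came from pooled adult C57/BL6J mice and had been immortalized with HPV E6/E7. Their *Prom1*-KO derivatives carried Cas9 under puromycin selection and a guide RNA to *Prom1* exon 5, and each of the lines KO22 and KO26 is 1 clone, so that a clone and the loss of *Prom1* cannot be told apart within it. Cells with Cas9 and a scrambled guide are described for the check of genomic DNA, and whether the sequenced WT cells are these is not stated. There were 4 WT, 3 KO22 and 2 KO26 libraries. The library names put 1 library of each line in series 8995 and the other 6 (3 WT, 2 KO22, 1 KO26) in series 9262, and replicate 1 of each line is its library of series 8995. The study itself described both KO26 libraries as outliers and removed them, and the *Prom1*-KO libraries it names in its heatmap are those of KO22. Every KO26 value here, the comparison of the clones included, rests on the libraries that the study removed. The tissue libraries are 3 WT and 3 RPE-specific *Prom1*-KO, from *Prom1* fl/fl mice crossed to RPE65-Cre and given tamoxifen by gavage to delete the gene in the RPE only. The sample labels name RPE as their tissue, and RPE with choroid comes from the series' design text. The labels give neither the age of these mice nor whether the WT mice had Cre or tamoxifen. No label gives separate cultures, so the p-values for mRPE measure the spread between libraries, which may be technical.

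The targeted gene was looked at first. *Prom1* itself was not analysed here in the mRPE libraries. In RPE/choroid it was at 48.7, 49.6 and 53.3 CPM (counts scaled to a common library total, with edgeR's TMM normalization) in WT and at 49.9, 48.1 and 35.5 CPM in the libraries labelled *Prom1*-KO, a log2 fold change of −0.18 with a 95% interval of −0.55 to 0.19 (edgeR, adjusted p = 0.82). The count of the gene, which photoreceptors also express, thus did not set these 3 libraries apart, and they are called "labelled KO" below. Total counts were 8076188 to 27537863 per mRPE library and 48154444 to 61766179 per RPE/choroid library. Of 14 RPE markers, 10 (*Rpe65*, *Rlbp1*, *Lrat*, *Otx2*, *Tyr*, *Tyrp1*, *Dct*, *Ttr*, *Krt8* and *Krt18*) had no row in the mRPE table used here. A missing row gives no level. The other 4 were low in WT mRPE, *Mitf* at 3.0 to 6.8, *Best1* at 3.2 to 4.2, *Rdh5* at 3.6 to 4.6 and *Pmel* at 1.9 to 2.3 CPM. *Col1a1* and *Col1a2*, fibrillar collagen genes of fibroblasts, were at 3399 to 5406 and 5131 to 6956 CPM in WT mRPE. Of the other fibroblast and mural markers *Lum* had no row, *Rgs5* was at 0.437 to 1.58 CPM there and the rest lay in between. In every line the library of series 8995 stood apart from those of series 9262, with a chi-square of counts per degree of freedom of 65.4 to 86.6 in WT, 46.9 and 69.4 in KO22 and 83.9 in KO26, against 5.2 to 7.94 among the WT libraries and 12.9 between the KO22 libraries of series 9262. In RPE/choroid, replicate 3 labelled KO had 84.2% of its counts on mitochondrially encoded genes, where the other 5 libraries had 64.9% to 71.3%. The same chi-square was 259 and 276 between this library and replicates 1 and 2 labelled KO. It was 17.8 between replicates 1 and 2 labelled KO, and 36.3 to 73.4 among the WT libraries.

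Amino acids cross the plasma membrane on carriers with overlapping substrates. The SLC38 proteins of system A (SNAT1, SNAT2 and SNAT4, from *Slc38a1*, *Slc38a2* and *Slc38a4*) carry small neutral amino acids such as glutamine and alanine inward with sodium. The cationic carriers CAT1 and CAT2, from *Slc7a1* and *Slc7a2*, bring in arginine, lysine and ornithine. LAT1 and LAT2, the light chains encoded by *Slc7a5* and *Slc7a8*, exchange large neutral amino acids, leucine among them, and reach the membrane only when bound to the heavy chain CD98hc encoded by *Slc3a2*. ASCT1 and ASCT2, from *Slc1a4* and *Slc1a5*, exchange alanine, serine and cysteine, and ASCT2 also glutamine. The RPE stands between the choroidal blood and the photoreceptors and passes nutrients in both directions. Several of these genes are known targets of ATF4, a transcription factor that is made when amino acids run short and that binds a response element with the core TGATGNAA.

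Promoter sequence was available for 6 of the 10 genes in RefSeq's table for GRCm38.p6, from 250 bases before a start to 50 after it. *Slc38a1*, *Slc7a2*, *Slc7a5* and *Slc1a5* are named only. The 3 promoters below are shown because the mRNA of all 3 genes was higher in KO26 than in WT (see the values further on) while, of the 6 genes, only *Slc1a4* held the core. In KO22 *Slc7a1* rose, *Slc1a4* fell and *Slc3a2* did not pass the test. *Slc7a1* has 2 starts there, and the outermost is printed. Bases beyond the 250 before and 50 after a start were not searched. Capitals mark the match to TGATGNAA, which here reads on the opposite strand, each sequence runs 5′ to 3′ along its gene for the last 150 bases before the start, and that of *Slc1a4* goes on 4 bases past it.
Slc1a4, chr11:20332710-20332863, minus strand: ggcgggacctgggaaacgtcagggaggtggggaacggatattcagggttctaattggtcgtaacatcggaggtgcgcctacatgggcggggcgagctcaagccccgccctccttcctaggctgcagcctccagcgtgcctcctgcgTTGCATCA
Slc3a2, chr19:8713898-8714047, minus strand: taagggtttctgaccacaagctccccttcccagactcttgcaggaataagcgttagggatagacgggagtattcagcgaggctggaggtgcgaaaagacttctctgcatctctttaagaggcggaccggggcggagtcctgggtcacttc
Slc7a1, chr5:148399905-148400054, minus strand: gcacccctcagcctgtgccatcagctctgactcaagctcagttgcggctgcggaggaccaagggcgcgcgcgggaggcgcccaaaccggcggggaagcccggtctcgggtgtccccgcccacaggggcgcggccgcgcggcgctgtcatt

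The *Slc1a4* match lay at bases −4 to 4 around the start. Over both strands the core was found in 1 of the 6 genes, in 3.97% of all 32851 promoters of the same length, and in 6 of 23 genes of a list of amino acid response genes. A gene was counted when any of its starts held a motif, while the shares of all promoters are per start, so these are unlike units. The E-box CACGTG, bound by TFEB and its relatives, was in 0 of the 6 genes and in 7.15% of all promoters. With no E-box match there was no overlap between the motifs, and a match is a match of letters only.

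**Figure D1:**
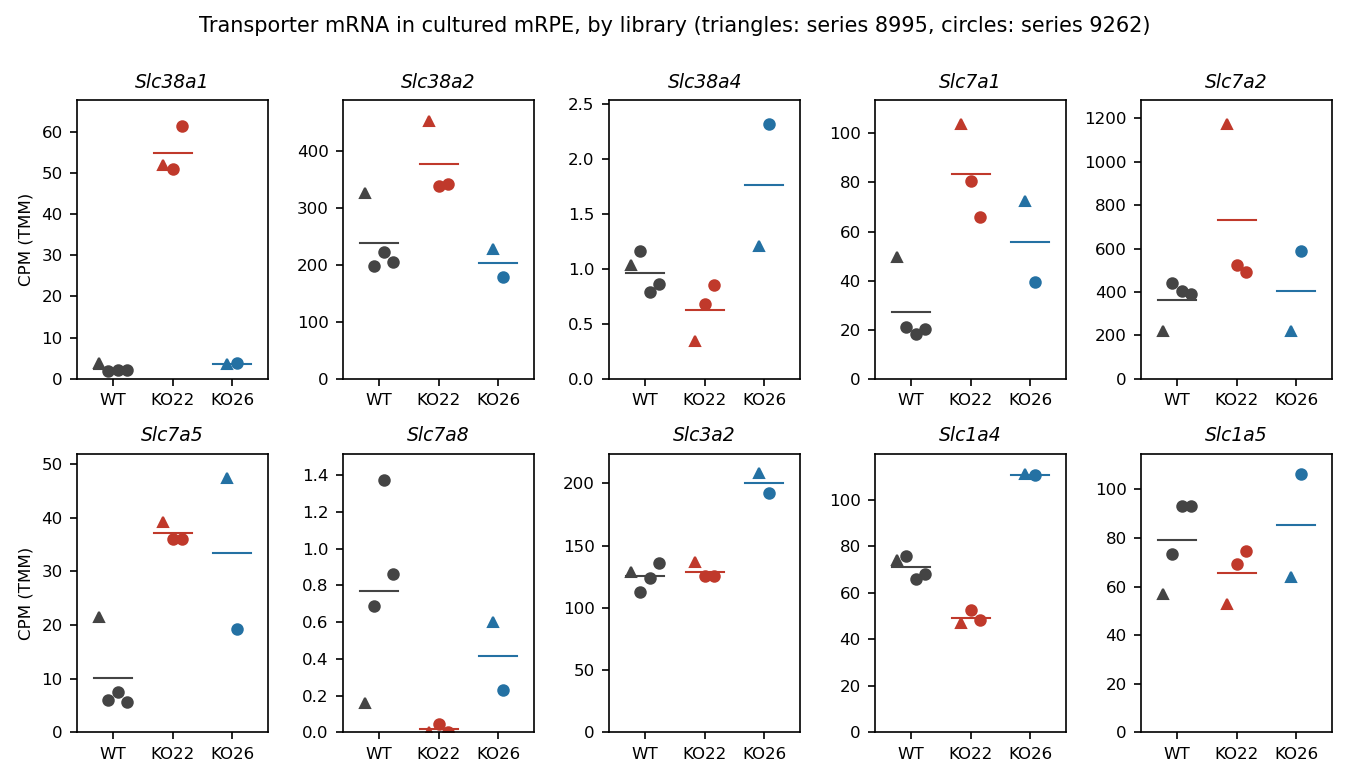
CPM of each transporter gene (vertical axis, linear from 0, 1 scale per panel) in every mRPE library of WT, KO22 and KO26. Points are libraries, triangles for series 8995 and circles for series 9262, and bars are group means. *Slc38a1* sits at 50.8 to 61.5 CPM in KO22 and at 1.99 to 3.85 CPM in WT and KO26.

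KO22 was compared with WT over 7 libraries, with the library series as a term. A gene was called changed at an adjusted p under 0.05 (edgeR's quasi-likelihood test, Benjamini-Hochberg over all 20455 genes tested), and past both limits when the absolute log2 fold change was also over 1.2. In KO22, 4 of the 10 transporter genes rose (*Slc38a1*, *Slc7a5*, *Slc7a1* and *Slc38a2*) and 2 fell (*Slc7a8* and *Slc1a4*). *Slc7a2*, *Slc38a4*, *Slc3a2* and *Slc1a5* did not pass the test. Over all genes 26.9% rose and 26.1% fell, so 53% changed and 6 of 10 is near that background. Past both limits were 3 genes higher, where 11.4% of all genes were, and 1 lower, where 13.8% were, or 25.2% together. The 1 lower is *Slc7a8*, whose call supports nothing (see its counts below). The median log2 fold change of the 10 genes was 0.34 and that of all genes −0.03. *Slc38a1* is among the genes that the study itself singled out on these samples, so its direction here is no independent evidence. Markers of fibroblasts and mural cells moved with KO22 as well. Of the 7 in the table, 6 fell, and their summed level was 4363 to 6231 CPM in KO22, 11910 to 15870 CPM in WT and 17260 to 19220 CPM in KO26. Of 7 endothelial markers 4 were in the table, and their sum was 152 to 235 CPM in WT, 3.34 to 5.16 CPM in KO22 and 56.2 to 73.8 CPM in KO26, without overlap. In WT and KO26 nearly all of it was *Kdr*, a receptor of VEGF, which fell in KO22. *Plvap* was called higher from 29, 13 and 5 counts in KO22 against 19, 2, 3 and 0 in WT. Its CPM overlapped between the groups. It reached the count minimum only through KO22, the group where it is high, so that call supports nothing. Of 14 RPE markers 4 were in the table, and in KO22 1 of them was called higher and 1 lower. Their sum was 11.8 to 17.38 CPM in WT, 17.3 to 39.95 CPM in KO22 and 8.167 to 12.61 CPM in KO26. The part of these lists in the results below was not tested.

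The system A genes lie next to each other on chromosome 15 of GRCm39, all on the minus strand. *Slc38a1* (ENSMUSG00000023169) spans chr15:96469298-96541851, *Slc38a2* (ENSMUSG00000022462) chr15:96585266-96597894 and *Slc38a4* (ENSMUSG00000022464) chr15:96892693-96958593. The first 2 passed the test and *Slc38a4* did not. *Slc38a1* was at 3.85 CPM in the WT library of series 8995 and at 1.99, 2.06 and 2.01 CPM in the WT libraries of series 9262. In KO22 it was at 51.8 CPM in series 8995 and at 50.8 and 61.5 CPM in series 9262. All KO22 libraries lay above all WT libraries, and the fitted difference was 21.6-fold (log2 fold change 4.43, SE 0.21, adjusted p = 7.47e-07). Within series 8995 the log2 difference was 3.59 and within series 9262 it was 4.48, both on the scale log2(CPM + 0.5), which understates changes of low genes. Leaving out any 1 library kept it between 4.23 and 4.80.

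*Slc38a2*, the amino acid-regulated SNAT2, was already abundant in WT. It was at 326, 198, 223 and 206 CPM there, the first in series 8995, and at 453, 340 and 343 CPM in KO22. The KO22 libraries lay above the WT libraries, by 1.56-fold (log2 fold change 0.64, SE 0.11, adjusted p = 0.000815), with log2 differences of 0.47 within series 8995 and 0.71 within series 9262. *Slc38a4* was near the lower end of the measured range, with 8 to 26 counts per WT library and 4 to 14 per KO22 library. Its level was 0.786 to 1.17 CPM in WT and 0.346, 0.675 and 0.854 CPM in KO22. The groups overlapped, and the log2 fold change of −0.63 had an interval of −1.51 to 0.24 (adjusted p = 0.198).

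Of the cationic carriers, *Slc7a1* rose. *Slc7a1* (ENSMUSG00000041313, chr5:148264220-148336848, minus strand) was at 49.6 CPM in the WT library of series 8995 and at 21.1, 18.4 and 20.5 CPM in those of series 9262, against 104 CPM and 80.8 and 66.1 CPM in KO22. The KO22 libraries were all higher, by 3.11-fold (log2 fold change 1.64, SE 0.17, adjusted p = 4.22e-05). The log2 difference was 1.06 within series 8995 and 1.85 within series 9262. *Slc7a2* (ENSMUSG00000031596, chr8:41315431-41375345, plus strand) gave a different picture in each series. In series 8995 it was at 220 CPM in WT and 1175 CPM in KO22, a log2 difference of 2.42. In series 9262 it was at 442, 406 and 389 CPM in WT and at 523 and 492 CPM in KO22, a log2 difference of 0.30. KO22 libraries were above WT libraries in both, but the sizes differed so much that the joint fit (log2 fold change 0.91, SE 0.35) missed the limit with an adjusted p of 0.0529. Without the KO22 library of series 8995 the log2 fold change was 0.31 with an adjusted p of 0.00995, and without the WT library of that series 0.29 with 0.0183. Over 14 alternative settings the adjusted p of *Slc7a2* ran from 0.00995 to 0.0935. It was under 0.05 in 7 of these, DESeq2's own test among them (adjusted p = 0.0147).

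Among the genes of the LAT carriers, the light chain gene *Slc7a5* rose, the call of *Slc7a8* rests on few counts and the heavy chain did not pass the test. *Slc7a5* (ENSMUSG00000040010, chr8:122607884-122634433, minus strand) was at 21.5 CPM in the WT library of series 8995 and at 5.96, 7.46 and 5.67 CPM in the other WT libraries. In KO22 it was at 39.2, 36.0 and 36.0 CPM. The KO22 libraries lay close together and above WT, by 4-fold (log2 fold change 2.00, SE 0.28, adjusted p = 0.000305), while the log2 difference was 0.85 within series 8995 and 2.42 within series 9262. *Slc7a8* (ENSMUSG00000022180, chr14:54959630-55019649, minus strand) was barely detected in cultured cells. It had 4, 10, 14 and 12 counts in WT and 0, 1 and 0 counts in KO22. The test called it lower (adjusted p = 0.000945), but it reached the count minimum only in WT replicates 2 to 4, the group where it is high, so that this call and its place in the count of 2 that fell support nothing. The summed counts of 40 against 1 gave WT over KO22 a ratio of 28.3 with a 95% exact interval of 4.80 to 1145, which covers counting error only. Without WT replicate 2, 3 or 4 too few libraries passed the count minimum for *Slc7a8* to be tested. *Slc3a2* (ENSMUSG00000010095, chr19:8684245-8701108, minus strand) was at 129, 112, 124 and 136 CPM in WT and at 137, 125 and 125 CPM in KO22. The ranges overlapped and the log2 fold change of 0.03 had an interval of −0.20 to 0.27 (adjusted p = 0.81).

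The exchangers of the SLC1 family were lower or did not pass the test. *Slc1a4* (ENSMUSG00000020142, chr11:20252180-20282774, minus strand) was at 74.0, 76.0, 65.9 and 68.3 CPM in WT and at 47.0, 52.6 and 48.1 CPM in KO22. All KO22 libraries were below all WT libraries, and the level fell by 0.53 on the log2 scale (SE 0.11, adjusted p = 0.00266), with −0.65 within series 8995 and −0.47 within series 9262. *Slc1a5* (ENSMUSG00000001918, chr7:16515265-16532731, plus strand) was at 56.9, 73.3, 93.0 and 93.1 CPM in WT and at 53.0, 69.2 and 74.8 CPM in KO22. The ranges overlapped, also within series 9262, and the log2 fold change of −0.22 had an interval of −0.49 to 0.05 (adjusted p = 0.159). Without either library of series 8995 (WT or KO22) the *Slc1a5* value passed the limit, at −0.27 (adjusted p = 0.0265) and −0.25 (0.0387), within a range of 0.0265 to 0.316 over 14 alternatives.

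KO26 was compared with WT in 1 fit over all 9 mRPE libraries. *Slc7a5*, *Slc7a1*, *Slc3a2* and *Slc1a4* rose in KO26 and none of the 10 fell, where 2.36% of all 20737 genes tested rose and 1.13% fell, or 3.5% together. *Slc7a5* alone was past both limits, as were 1.21% of all genes higher and 0.719% lower, or 1.92% together. The median log2 fold change of the 10 was 0.55, against 0.03 over all genes. These 4 calls rest on each of several libraries. Leaving out WT replicate 2, 3 or 4 or either KO26 library left 0 of the 10 past the limit, and leaving out each of the other 4 libraries left 3 to 5. Of the fibroblast and mural markers 1 was higher and 1 lower in KO26, and of the endothelial markers edgeR and DESeq2 called 0 and 1 was under an unadjusted p of 0.05, though the sums of both lists did not overlap with WT (values above); their part was not tested. KO26 and KO22 share their WT libraries, so their differences from WT are not independent.

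In KO26, *Slc7a5* was at 47.3 CPM in series 8995 and 19.3 CPM in series 9262. Each value was above the WT libraries of its own series, and the fitted difference was 2.80-fold (log2 fold change 1.49, SE 0.31, adjusted p = 0.028), with log2 differences of 1.12 and 1.54 within the series. *Slc7a1* was at 72.5 and 39.3 CPM, again above WT of the same series in both, by 1.79-fold (log2 fold change 0.84, SE 0.19, adjusted p = 0.0368). The heavy chain gene *Slc3a2* was at 208 and 192 CPM, above all WT libraries, by 1.57-fold (log2 fold change 0.65, SE 0.13, adjusted p = 0.0214). *Slc1a4* was at 111 CPM in both KO26 libraries, above the highest WT library at 76.0 CPM (log2 fold change 0.64, SE 0.12, adjusted p = 0.0226). With 1 library left out in turn, the adjusted p ranged from 1.81e-05 to 0.218 for *Slc7a5*, 0.000628 to 0.182 for *Slc7a1*, 0.000561 to 0.114 for *Slc3a2* and 0.000603 to 0.114 for *Slc1a4*, and the log2 fold changes stayed above 0 throughout.

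The other 6 genes did not pass the test in KO26. *Slc38a1* was at 3.67 and 3.70 CPM, just below the WT library of series 8995 and above those of series 9262 (log2 fold change 0.47, interval −0.14 to 1.07, adjusted p = 0.368). *Slc38a2*, at 228 and 179 CPM, was below the WT libraries of its own series (log2 fold change −0.33, adjusted p = 0.199), and it passed at 0.0461 without KO22 replicate 1, within 0.0461 to 0.645 over 16 alternatives. *Slc38a4* was at 1.21 and 2.31 CPM, above all WT libraries, yet from 26 and 20 counts (log2 fold change 0.85, adjusted p = 0.259). *Slc7a2* was at 221 and 587 CPM (log2 fold change 0.17, adjusted p = 0.856). *Slc7a8* had 13 and 2 counts against 40 in the 4 WT libraries, a ratio of 0.793 with an exact 95% interval of 0.407 to 1.47. *Slc1a5* was at 64.1 and 107 CPM (log2 fold change 0.23, adjusted p = 0.393).

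**Figure D2:**
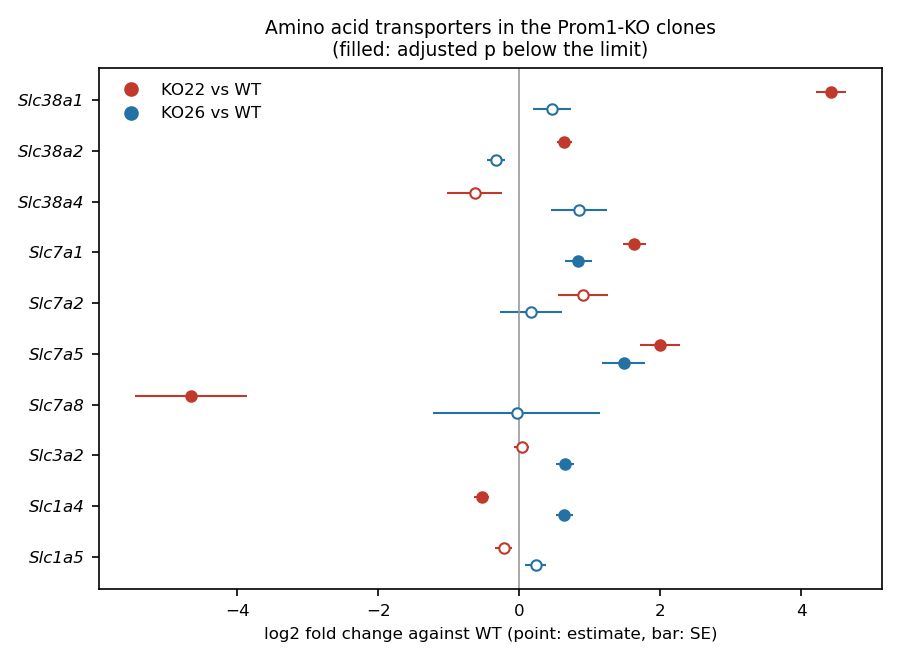
Log2 fold change of each transporter gene against WT (horizontal axis) in KO22 (red) and KO26 (blue), from edgeR, with bars of 1 SE. Filled points passed an adjusted p of 0.05. *Slc38a1* is at 4.43 in KO22 and 0.47 in KO26, *Slc1a4* is at −0.53 and 0.64, and the fitted value of *Slc7a8* in KO22 depends on its 0, 1 and 0 counts.

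The clones were set against each other directly, which tests the difference between their changes from WT. Of the 10 genes, 3 were higher in KO22 than in KO26 (*Slc38a1*, *Slc38a2* and *Slc7a1*) and 5 were lower (*Slc7a8*, *Slc38a4*, *Slc1a4*, *Slc3a2* and *Slc1a5*), where 16.3% and 18.1% of all genes were, or 34.4% together. Past both limits, *Slc38a1* was higher and *Slc7a8* and *Slc38a4* were lower, as were 7.56% and 10.7% of all genes. In this fit *Slc7a8* reached the count minimum only in WT and KO26 libraries, the groups where it is higher. Its place in both counts of lower genes thus supports nothing. *Slc38a1* was 15.7-fold higher in KO22 (log2 fold change 3.97, SE 0.29, adjusted p = 7.09e-06) and *Slc38a2* 1.96-fold (0.97, SE 0.14, adjusted p = 0.000516). *Slc1a4* was 2.25-fold higher in KO26 than in KO22 (log2 fold change of KO22 over KO26 −1.17, SE 0.13, adjusted p = 0.000107), having fallen in one clone and risen in the other. *Slc3a2* was 1.54-fold higher in KO26 (−0.62, SE 0.13, adjusted p = 0.00466). These 4 calls held whichever library was left out.

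The remaining calls between the clones were less firm, and that of *Slc7a8* supports nothing. *Slc7a1* was higher in KO22 (log2 fold change 0.80, SE 0.20, adjusted p = 0.012), but the adjusted p was 0.0595 without KO26 replicate 1 and 0.0594 without replicate 2. *Slc38a4* was lower in KO22 (−1.51, SE 0.45, adjusted p = 0.0241), with 0.0667 without KO22 replicate 2 and 0.204 without KO26 replicate 2. *Slc1a5* (−0.44, SE 0.15, adjusted p = 0.0416) passed in 3 of the 9 fits with a library left out, and 6 libraries each cost the call: WT replicates 3 and 4 (0.0649 and 0.0628), KO22 replicates 2 and 3 (0.139 and 0.092) and both of KO26 (0.0529 and 0.25). For *Slc7a8* the summed counts were 1 in KO22 and 15 in KO26, a ratio of KO26 over KO22 of 22.5 with an exact interval of 3.45 to 945, and the adjusted p of 0.0195 became 0.189 without KO26 replicate 1 and 0.0514 without KO22 replicate 3. *Slc7a5* (0.53, interval −0.20 to 1.27, adjusted p = 0.245) passed at 0.000169 without KO22 replicate 1, within 0.000169 to 0.878 over 15 alternatives. *Slc7a2* (0.91, interval −0.17 to 1.99, adjusted p = 0.177) passed at 0.0423 without KO26 replicate 2 and was at −0.06 without KO22 replicate 1.

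The light chains that pair with the *Slc3a2* product were then compared per length, as CPM per kb of merged exons, since 1 heavy chain serves several light chains. The light chains counted were *Slc7a5*, *Slc7a8* and, from the other transporters, *Slc7a6* (y+LAT2), *Slc7a7* (y+LAT1), *Slc7a10* (Asc-1) and *Slc7a11* (xCT, which imports cystine for glutamate). *Slc3a2* over the summed light chains was 1.82, 2.31, 2.38 and 2.69 in WT. In KO22 it was 0.705, 0.916 and 0.902, below every WT library. In KO26 it was 2.04 and 3.25. The mean of KO22 was 0.841 against 2.30 in WT. An exact two-sided permutation test, not part of the plan and without the library series, gave p = 0.0571. That is the smallest value that 3 against 4 libraries allow. *Slc7a5* and *Slc7a11*, both in the sum, rose in these same libraries while *Slc3a2* did not pass the test. The lower ratio and its p are thus no further evidence. With the length of the canonical transcript in place of merged exons the means were 0.99 and 2.45.

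What made up the sum also differed. In WT, *Slc7a6* gave 57.5% to 79.4% of the light-chain level per kb, *Slc7a5* 13.6% to 36.9% and *Slc7a11* 1.19% to 2.44%. In KO22 the share of *Slc7a11* was 27.9% to 44.7% and that of *Slc7a5* 24.5% to 31.9%, with *Slc7a6* at 29.7% to 38.6%. In KO26 *Slc7a5* gave 39.7% and 56.2% and *Slc7a11* 6.54% and 6.94%. *Slc7a8* never reached more than 1.33% in mRPE, while in RPE/choroid it gave 22.4% to 53.8%. These are shares of mRNA level per length, not of protein.

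The order of the 10 genes by CPM per kb was set out in each group as a description. In WT mRPE, *Slc7a2* (36.0 ± 9.78, SD, n = 4), *Slc3a2* (26.9 ± 2.14) and *Slc38a2* (24.5 ± 6.13) led, and the range of each overlapped that of the next. *Slc1a4* (17.2 ± 1.14) and *Slc1a5* (14.6 ± 3.22) came below them without overlap and overlapped each other. Then followed *Slc7a5* at 2.64 ± 1.99 and *Slc7a1* at 2.32 ± 1.26, whose ranges overlapped. At the lower end were *Slc38a4* (0.156 ± 0.028), *Slc38a1* (0.131 ± 0.049) and *Slc7a8* (0.083 ± 0.054), all 3 overlapping their neighbours. In KO22 *Slc38a1* stood at 2.89 ± 0.31 (SD, n = 3) and held place 8, since *Slc7a1* above it was at 7.10 ± 1.62. In WT RPE/choroid *Slc3a2* (5.93 ± 1.19, SD, n = 3) and *Slc38a2* (4.15 ± 0.30) led, followed by *Slc7a5* (2.79 ± 0.41), *Slc7a8* (2.32 ± 1.47), *Slc7a2* (2.08 ± 0.42) and *Slc7a1* (1.91 ± 0.24), of which each overlapped the next. *Slc1a5* (1.41 ± 0.195), *Slc38a1* (1.26 ± 0.255), *Slc1a4* (0.894 ± 0.082) and *Slc38a4* (0.079 ± 0.027) came last. The tables were normalized separately, and only the order within each is read here. The order also depended on the length used: of 50 places over the 5 groups, 28 were kept with the canonical transcript length, and in WT mRPE the order then began with *Slc38a2*, *Slc3a2* and *Slc7a2*.

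Other amino acid carriers were read from a list of 44 genes, of which 26 were tested in KO22. In KO22, 6 rose and 10 fell, against the 26.9% and 26.1% of all genes. *Slc7a11* went from 2.06 to 5.76 CPM in WT to 127 to 288 CPM in KO22 (log2 fold change 5.73, SE 0.12, adjusted p = 3.48e-08), and the study had named this gene on the same samples. *Slc6a17*, a vesicular carrier of neutral amino acids, rose by 2.43 (adjusted p = 0.000263) and *Slc6a9*, the glycine transporter GlyT1, by 1.44 (0.000393) on the log2 scale. *Slc1a6*, the glutamate transporter EAAT4, was at 23.7 to 36.3 CPM in WT and at 0, 0.434 and 0.233 CPM in KO22 (0, 9 and 3 counts; adjusted p = 1.19e-06). *Slc38a9*, the lysosomal arginine sensor of mTORC1, fell by 1.66 (adjusted p = 1.06e-05), and *Slc38a6* fell by 2.03 (1.35e-05). In KO26, 3 of 27 rose and 2 fell, against 2.36% and 1.13% of all genes. Past both limits in KO26 were *Slc7a11*, at 13.7 and 22.3 CPM (log2 fold change 2.27, SE 0.17, adjusted p = 0.000678), and *Slc16a10*, the aromatic amino acid carrier TAT1, at 0.371 and 0.463 CPM against 1.29 to 2.36 CPM in WT (−2.29, SE 0.46, adjusted p = 0.0255). In the KO26 libraries 3 counts make 0.139 and 0.347 CPM, so these *Slc16a10* values rest on few counts. In KO22 *Slc16a10* was higher than WT, at 3.65 to 5.88 CPM (log2 fold change 1.28, adjusted p = 0.0039).

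**Figure D3:**
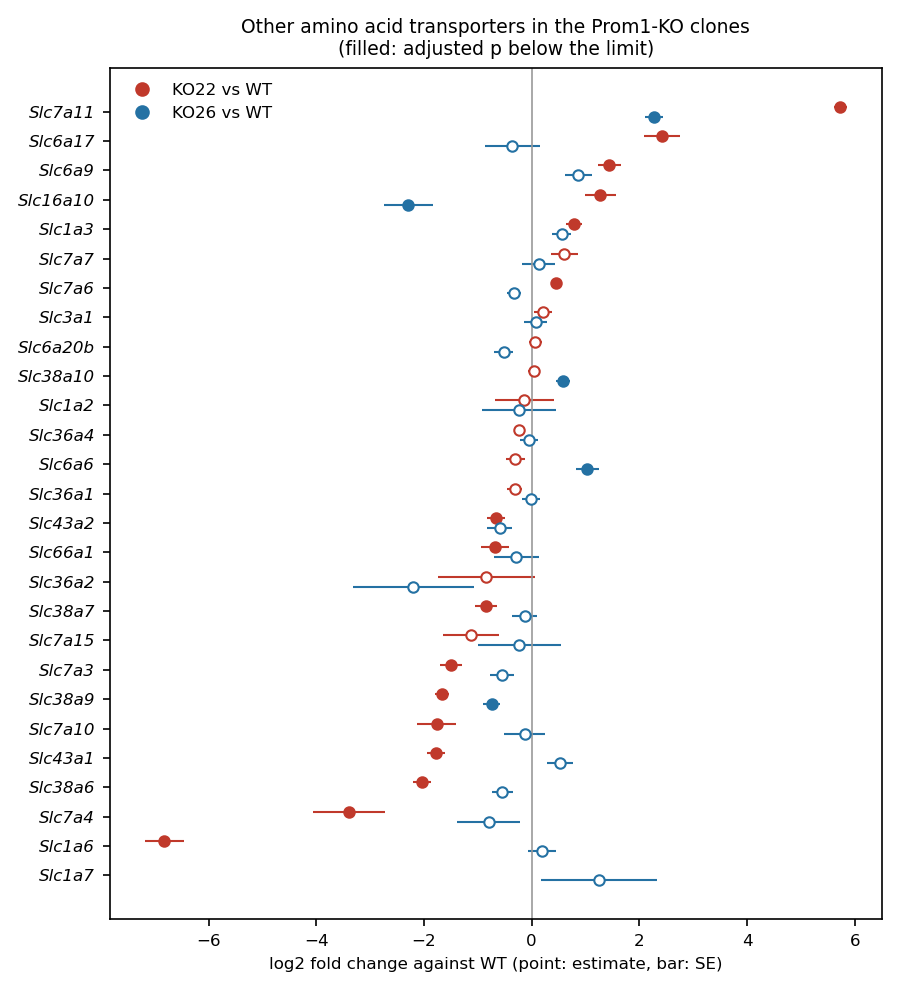
Log2 fold change against WT (horizontal axis) of the other amino acid transporter genes tested in KO22 (red) or KO26 (blue), from edgeR, with bars of 1 SE and filled points past an adjusted p of 0.05. *Slc7a11* is at 5.73 and 2.27, and *Slc16a10* at 1.28 and −2.29. The value of *Slc1a6* in KO22 rests on 0 to 9 counts per library, and that of *Slc16a10* in KO26 on few counts.

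Genes that respond to amino acid shortage, the ATF4 targets among them, were read from a list of 30, all tested. In KO22, 19 rose and 4 fell, where 26.9% and 26.1% of all genes did, with a median log2 fold change of 0.95 against −0.03 over all genes. The 3 with the smallest adjusted p among those higher were *Cth* (4.69, adjusted p = 1.15e-05), which makes cysteine from cystathionine, *Eif4ebp1* (1.34, 1.33e-05), a brake on translation, and *Yars1* (1.33, 2.65e-05), the tyrosyl-tRNA synthetase. *Stc2*, a secreted glycoprotein, was the 1 gene of the list lower past both limits (−3.33, adjusted p = 7.3e-05). In KO26, 17 rose and none of the 30 fell, where 2.36% of all genes rose, with a median of 0.81 against 0.03. These KO26 calls rest on the same libraries that the study described as outliers. The list was not refitted with a library left out, a step that removed the transporter calls of the same fit for several libraries. Between the clones 6 were higher in KO22 and 6 lower, where 16.3% and 18.1% of all genes were. *Slc7a11* and the 10 transporters were not on this list.

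Amino acid sensing genes of the mTORC1 pathway were read from a list of 34, all tested. Of these, 9 rose and 6 fell in KO22, where 53% of all genes changed. In KO26 edgeR called 0, DESeq2 called 0, and 3 were under an unadjusted p of 0.05, as were 20.1% of all genes. Between the clones 7 were higher in KO22 and 3 lower, against 34.4% of all genes in either direction. *Nprl2*, a subunit of the GATOR1 complex, rose by 1.27 in KO22 (adjusted p = 0.000172). *Sesn1*, a leucine sensor of the sestrin family, fell by 2.14 (9.91e-07), and *Castor2*, a relative of the arginine sensor *Castor1*, by 1.81 (6.84e-05). Among 20 genes of amino acid use tested, 8 rose and 4 fell in KO22, against 53% of all genes, and 1 rose and none fell in KO26, against 3.5%. *Odc1*, the first enzyme from ornithine to polyamines, rose by 1.64 (adjusted p = 1.54e-05), *Gpt2* by 1.23 (5.57e-05) and *Got2* by 1.22 (6.68e-05), both mitochondrial aminotransferases. *Bckdha*, a subunit of the branched-chain ketoacid dehydrogenase, fell by 1.37 (0.000918).

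In RPE/choroid none of the 10 genes passed the test between WT and the libraries labelled KO, by edgeR or by DESeq2. Of the 10, 1 (*Slc7a2*) was under an unadjusted p of 0.05, as were 8.3% of all 24926 genes tested. Of these genes edgeR called 0.193%, every one of them lower, and DESeq2 called 448 genes. In bulk tissue fewer cells of a type and less RNA per cell cannot be told apart. Of 14 RPE markers, 3 fell (*Rpe65*, *Lrat* and *Rdh5*, adjusted p = 0.0191, 0.00445 and 0.0242) and the other 11 did not pass the test. Their summed level was 2126 to 2886 CPM in WT and 1280 to 1450 CPM in the libraries labelled KO. Without *Rpe65*, *Lrat* and *Ttr* the other 11 summed to 1042 to 1466 CPM in WT and 1179 to 1312 CPM in labelled KO. The 3 left out were picked after their values were seen and make up most of the drop. The overlap of the rest follows from that choice. Within these 11, *Rdh5* was lower without overlap, at 50.7 to 65.5 CPM in WT and 9.59 to 16.1 CPM in labelled KO. So were *Rlbp1* (31.3 to 56.8 and 6.37 to 14.0 CPM) and *Mitf* (44.3 to 53.9 and 27.5 to 30.3 CPM). *Dct* was higher without overlap (315 to 545 and 570 to 619 CPM), and the others overlapped. Photoreceptor markers summed to 41.4 to 1178 CPM in WT and 20.8 to 570 CPM in labelled KO, and muscle markers to 283 to 920 and 62.7 to 791 CPM, so both varied widely between libraries of 1 group. Endothelial markers summed to 92.2 to 186 CPM in WT and 59.01 to 80.2 CPM in labelled KO, and markers of inner retina and glia to 39.2 to 49.8 and 54.1 to 78.8 CPM, both without overlap. Of the 7 genes in each of these lists edgeR called 0 and DESeq2 2, with 6 and 3 under an unadjusted p of 0.05. Immune markers (82.6 to 98.5 and 82.2 to 105 CPM) and fibroblast and mural markers (1132 to 2132 and 1021 to 2065 CPM) overlapped. The part of these lists in the transporter values was not tested.

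*Slc7a2* was at 25.1, 16.6 and 21.2 CPM in WT RPE/choroid and at 35.3, 32.1 and 25.7 CPM in labelled KO. The groups did not overlap, but by a narrow gap, and the log2 fold change of 0.56 (SE 0.19) had an adjusted p of 0.472. *Slc1a4* was at 3.62, 4.08 and 3.41 CPM in WT and at 3.05, 3.36 and 3.09 CPM in labelled KO, also without overlap (log2 fold change −0.22, interval −0.58 to 0.14, adjusted p = 0.77). *Slc7a8* varied widely between libraries of 1 group. It was at 36.5, 10.3 and 17.5 CPM in WT and at 54.0, 48.0 and 15.9 CPM in labelled KO, where the lowest is the library with the high mitochondrial share (log2 fold change 0.88, interval −0.43 to 2.19, adjusted p = 0.749).

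The main genes called in mRPE had overlapping groups in the tissue. *Slc38a1* was at 26.9, 18.3 and 26.4 CPM in WT and at 29.4, 28.0 and 22.7 CPM in labelled KO, overlapping (log2 fold change 0.16, interval −0.27 to 0.60, adjusted p = 0.871). *Slc7a5* was at 12.4, 10.3 and 9.36 CPM in WT and at 8.58, 10.6 and 6.24 CPM in labelled KO (−0.33, interval −0.84 to 0.17, adjusted p = 0.752). *Slc7a1* was at 25.5, 22.2 and 19.9 CPM in WT and at 17.8, 22.5 and 26.5 CPM in labelled KO (−0.02, interval −0.43 to 0.40, adjusted p = 0.991). *Slc38a2*, *Slc3a2*, *Slc1a5* and *Slc38a4* had log2 fold changes of 0.14, 0.14, 0.01 and −0.81, each with groups that overlapped, and *Slc38a4* was at 0.136 to 0.598 CPM in all 6 libraries. The interval of *Slc38a1* ends below the 4.43 of KO22, though tissue and culture were not tested against each other. The tissue holds other cells besides the RPE, and *Prom1* counts did not set its labelled KO libraries apart. No conclusion about the change in KO22 is drawn from this interval.

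**Figure D4:**
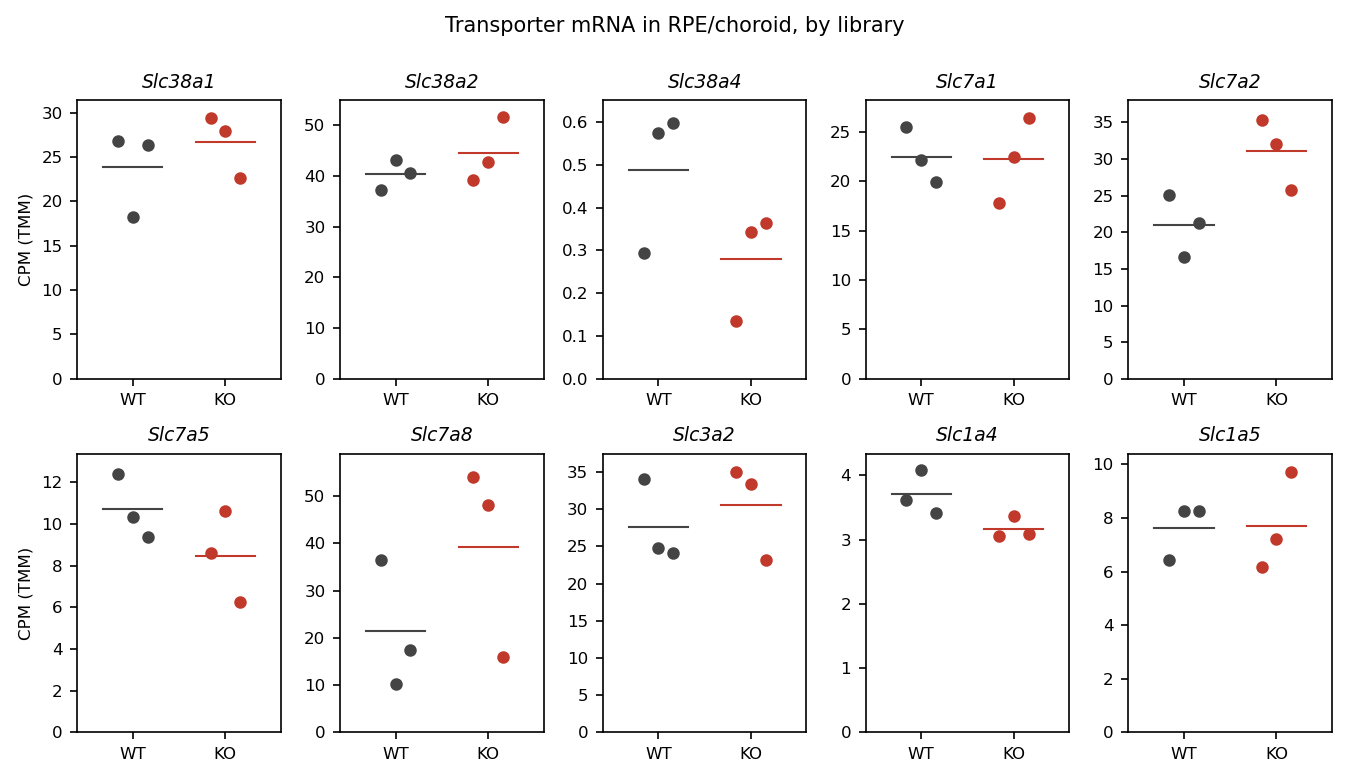
CPM of each transporter gene (vertical axis, linear from 0, 1 scale per panel) in every RPE/choroid library, WT and labelled KO. Points are libraries and bars are group means. The groups overlap for 8 of the 10 genes and do not for *Slc7a2* and *Slc1a4*, and none of the 10 passed the test.

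Of the 37 other transporters tested in RPE/choroid, edgeR called 0 and DESeq2 called 5, where DESeq2 called 448 of all 24926 genes. Of the 37, 9 were under an unadjusted p of 0.05, against 8.3% of all genes. *Slc7a10*, a light chain of *Slc3a2*, had the smallest edgeR adjusted p (0.051). It was at 4.17, 3.70 and 4.49 CPM in WT and at 1.24, 0.980 and 1.63 CPM in labelled KO, and this gene was picked after its values were seen. The lists of response, sensing and use had 0 genes called by either tool, with 3 of 30, 1 of 34 and 2 of 21 genes under an unadjusted p of 0.05, against the same 8.3%.

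Some of these counts could hold reads of overlapping genes, since the strand setting of the counting is not given in the sources used here. In GRCm39 (GENCODE vM39) 15.9% of the exon bases of *Slc3a2* are shared with the opposite-strand lncRNA *Snhg1*, 7.37% of *Slc1a4*, 6.53% and 6.34% of *Slc38a1*, 2.11% of *Slc38a2* and 0.9% of *Slc7a1* with other opposite-strand lncRNAs, and the other 5 genes shared no exon base with another gene.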

How the data were processed

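The authors trimmed reads with Trim Galore 0.6.7, aligned them to mm39 with STAR and deposited raw counts per gene, 1 table each for mRPE and RPE/choroid. The annotation release is not given in the sources used here, and the library kit is named as TruSeq stranded mRNA in the methods and as NEB stranded in the labels. The deposited normalized values (signal) are these counts divided by 1 size factor per library, with DESeq2 1.42.0 named in the labels; they served only to check the order of the genes.

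Counts were tested in R 4.3.3 with edgeR 4.0.16 (quasi-likelihood test, TMM, Benjamini-Hochberg over all genes) after removing genes that did not reach 5 counts in 3 or more libraries, with library series as a term for mRPE. KO22 against WT used 7 libraries, KO26 against WT and KO22 against KO26 used all 9, and RPE/choroid used 6. SE is the absolute log2 fold change over the square root of F. CPM use TMM-scaled totals, and intervals have 95% confidence. Gene positions and lengths are from GENCODE vM39 (GRCm39), and promoters from RefSeq (GRCm38.p6).

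The transporters and all gene lists were chosen with earlier results of these data known. Named without further choice were all 10 transporters and, per other list, in either direction the 3 of lowest adjusted p past both limits in KO22, plus other transporters past both limits in KO26 and RPE/choroid. The scripts were tested on simulated data. The alternatives were DESeq2 size factors, DESeq2's own test, other count filters, no series term, other sets of libraries, each library left out, and the fold limit. Those with series 9262 alone and with canonical transcript lengths were chosen after seeing the data.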

Additional observations from a re-analysis of the deposited data

Results flagged for a closer look

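Among the 10 genes, 3 had a WT mRPE library far from the other 3, past the 95% critical value of Dixon's ratio of the gap to the whole range for 4 samples. The ratio was 0.96 for *Slc38a1*, 0.914 for *Slc7a1* and 0.887 for *Slc7a5*, each time with the WT library of series 8995 as the highest. Chance flags about 1 group in 20. The 3 genes' values in KO22 and KO26 of the same series are given in the report beside it.

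The change from WT differed between KO22 and KO26, tested directly in edgeR, for 8 of the 10 genes, where 34.4% of all genes were called. The log2 fold change of KO22 over KO26 was 3.97 for *Slc38a1*, 0.97 for *Slc38a2*, 0.80 for *Slc7a1*, −0.44 for *Slc1a5*, −0.62 for *Slc3a2*, −1.17 for *Slc1a4*, −1.51 for *Slc38a4* and −4.52 for *Slc7a8*, of which the last is a fitted value from 1 count in KO22. *Slc7a8* reached the count minimum only in WT and KO26 libraries, so its place among the 8 supports nothing. *Slc1a5* did not pass with DESeq2's test (adjusted p = 0.0532).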

How the results depend on the processing

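The count of changed transporter genes in KO22 (6) was 4 to 8 over 15 alternatives, and 5 to 8 with a library left out. For KO26 (4) it was 1 with the fold limit, 0 without a series term and 0 to 5 with a library left out, and between the clones (8) the same settings gave 3, 5 and 5 to 9. In RPE/choroid (0) it was 0 in all 12 alternatives. The count of all genes changed in KO26 moved from 725 to 1600 with DESeq2, 255 without a series term, 3146 with WT and KO26 alone, 2418 with series 9262 alone and 137 to 3578 with a library left out, and that in RPE/choroid from 48 to 448 with DESeq2 and 9 to 41 with a library left out. Canonical transcript length kept 28 of the 50 places in the order by length. Genes that had not passed the test turned sign. With series 9262 alone *Slc7a2* between the clones was at −0.23, and without mitochondrial genes *Slc1a5* in RPE/choroid was at −0.0087. With a library left out, *Slc3a2* in KO22 was −0.019 to 0.079, *Slc7a2* in KO26 −0.93 to 0.72, *Slc7a8* in KO26 −2.00 to 1.87, *Slc7a2* between the clones −0.057 to 1.84, and in RPE/choroid *Slc7a1* was −0.17 to 0.11 and *Slc1a5* −0.20 to 0.14. The cause was not tested. Where KO26 was left with 1 library, that library is assumed to vary like the other groups. The library series is the block that matches the mRPE lines, and its removal is the setting without a series term. Beyond it the labels give no replicate numbers shared between groups. *Slc38a4* and *Slc7a8*, with 26 counts or fewer per mRPE library, are limited by depth.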
